A study of Mus musculus with 6 samples.

Results

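The adipokine genes Adipoq, Lep, Retn and Cfd and the white adipocyte genes Plin1, Cidec, Fabp4 and Pparg were followed in gastrocnemius muscle (GAS) of mice with altered interferon regulatory factor 4 (IRF4), a transcription factor of immune and fat cells. These 8 genes, of 24054 in the count table, were chosen by symbol with the results of the same libraries known, so their difference between the genotypes is a description, and p-values given for it are no independent test. Irf4 was removed from muscle in MI4KO mice, which carried Irf4 flox/flox and Myl1-Cre, and was expressed in muscle from the Rosa26 locus in MI4OE mice, which carried Rosa26-LSL-IRF4 and Myl1-Cre. Each genotype had 3 libraries, all from male C57BL/6 mice, and both shared the Cre driver, whose Myl1 promoter is active in skeletal myofibres. No flox or wild-type gastrocnemius was analysed here, so a difference cannot be assigned to either genotype. The labels give a high fat diet for all 6 mice, whereas the study described these lines on chow, and neither the diet nor the age at which muscle was taken could be settled.

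Adiponectin (Adipoq), leptin (Lep), resistin (Retn) and adipsin (Cfd) are proteins that fat cells secrete. In the mouse they are made mainly by white adipocytes. Perilipin 1 (Plin1) and CIDEC coat and enlarge the single large lipid droplet of these cells, and FABP4 carries fatty acids inside them. PPARγ (Pparg) is the nuclear receptor that drives fat cell formation and switches on many of the other genes, and its longer form, PPARγ2, is the form typical of fat cells. Skeletal muscle holds a small and variable number of fat cells between its fibres and around the muscle. In whole muscle RNA, fewer fat cells and less RNA per fat cell cannot be told apart.

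The libraries held between 18828605 and 29239585 expected counts. Irf4 was at 0.246, 0 and 0.0672 CPM (counts scaled to library size) in MI4KO, against 141, 369 and 261 CPM in MI4OE, which matched the labels. The myofibre genes Ckm and Acta1 were at 22500 to 44000 and 39600 to 55100 CPM over the 6 libraries. MI4OE replicate 1 stood apart in the genes of slow, oxidative fibres, with Myh7 at 1600 CPM against 0.212 to 162 CPM in the other 5 libraries, and its results are given separately where they decide a value. A count of 3, taken as the limit of detection, corresponded to 0.101 to 0.148 CPM.

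The 250 bases before the transcription start are shown for 3 of the starts, in the GRCm38.p6 build. No result on expression depends on them. Adipoq is the gene to which the others were compared, Cidec followed it most closely, and counts were assigned to the Pparg2 transcript only in MI4KO. A further Cidec window (chr6:113434765-113435014) is not shown and held no CCAAT either. The sequences are from RefSeq, from a table in which 7 of the 8 genes, all but Fabp4, were matched. Capitals mark the letters CCAAT on either strand.

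Adipoq (chr16:23146286-23146535, plus strand): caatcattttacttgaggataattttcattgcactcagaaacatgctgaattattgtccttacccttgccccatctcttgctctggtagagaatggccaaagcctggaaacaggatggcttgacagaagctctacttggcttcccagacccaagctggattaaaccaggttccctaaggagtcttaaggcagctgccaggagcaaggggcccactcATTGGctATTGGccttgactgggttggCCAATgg

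Cidec (chr6:113435761-113436010, minus strand): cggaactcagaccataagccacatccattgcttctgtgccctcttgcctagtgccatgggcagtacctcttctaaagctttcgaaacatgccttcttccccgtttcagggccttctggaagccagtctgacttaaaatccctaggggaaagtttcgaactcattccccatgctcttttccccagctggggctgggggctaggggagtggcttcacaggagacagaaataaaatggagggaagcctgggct

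Pparg2 (chr6:115421816-115422065, plus strand): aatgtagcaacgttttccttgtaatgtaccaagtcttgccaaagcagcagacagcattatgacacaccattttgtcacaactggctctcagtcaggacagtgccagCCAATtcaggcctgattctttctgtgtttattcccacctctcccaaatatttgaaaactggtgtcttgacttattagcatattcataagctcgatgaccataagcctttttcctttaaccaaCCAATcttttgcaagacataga

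The letters CCAAT occurred 3 times before Adipoq, 2 of them on the opposite strand, and 2 times before the Pparg2 start. They were not found before Cidec. CCAAT was present in 33.8% of 32536 different windows of this length before mouse genes. Of the 10 windows before starts of these genes, 3 held CCAAT, 2 held the nuclear receptor half-site AGGTCA (14% of all windows) and 1 held TATAAA (12.3%), both strands searched. None held GAAA repeated after 2 bases, a core of the interferon-stimulated response element (2.98% of all windows).

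All 8 genes were lower in MI4OE than in MI4KO on average, and 6 of them by more than 10-fold. These 6 were the 4 adipokines together with Plin1 and Cidec. When MI4KO replicate 3, the highest library of each of the 6, was left out, their log2 fold changes ran from -3.05 to -1.45 and none was past 10-fold. Fabp4 and Pparg differed less, and their libraries overlapped. The plot of levels by library shows this split.

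**Figure D1:**
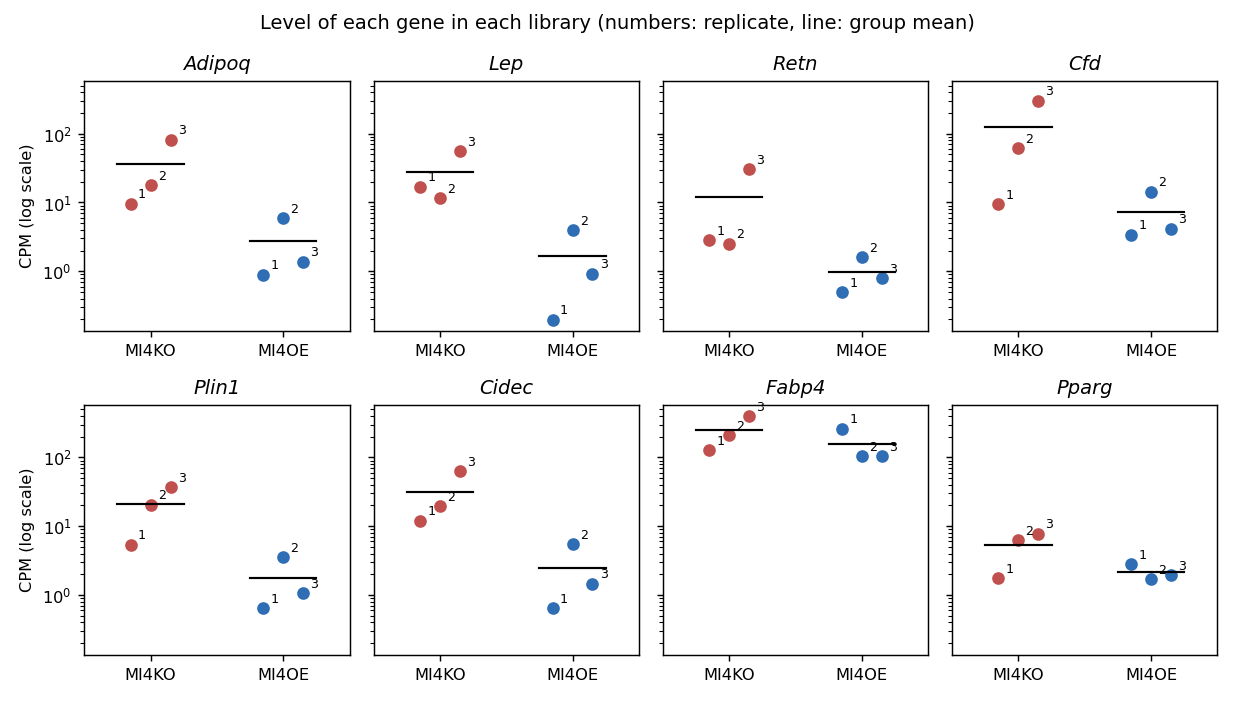
CPM of each of the 8 genes on a logarithmic axis in the 3 MI4KO (red) and 3 MI4OE (blue) libraries, with the replicate number at each point and the group mean as a line. Adipoq lay between 9.58 and 81.4 CPM in MI4KO and between 0.886 and 5.94 CPM in MI4OE, whereas Fabp4 spanned 128 to 398 CPM and 104 to 260 CPM.

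Adipoq, whose product acts on liver and muscle to raise fatty acid oxidation, measured 9.58, 17.7 and 81.4 CPM in replicates 1, 2 and 3 of MI4KO, against 0.886, 5.94 and 1.37 CPM for MI4OE. The groups did not overlap, although MI4KO replicate 3 was 8.50 times MI4KO replicate 1. The fitted log2 fold change of MI4OE over MI4KO was -3.69 (standard error, SE, 0.99), which is 12.9-fold lower. It was -2.30 without MI4KO replicate 3 and -4.99 when MI4OE replicate 2 was the library left out.

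Lep, the hormone by which fat stores signal to the brain, was at 17.0, 11.5 and 56.1 CPM in MI4KO, against 0.197, 3.92 and 0.927 CPM in MI4OE. The value in MI4OE replicate 1 rested on 4 counts. The groups did not overlap, and the log2 fold change was -4.01 (SE 0.96). Leaving out MI4KO replicate 3 gave -3.05 and leaving out MI4OE replicate 2 gave -5.61.

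Retn, which opposes insulin action in mice, was at 2.82, 2.5 and 30.2 CPM in MI4KO, against 0.492, 1.61 and 0.795 CPM in MI4OE. The groups did not overlap, but MI4KO replicates 1 and 2 stood close above the MI4OE libraries and MI4KO replicate 3 far above them. The log2 fold change was -3.58 (SE 1.07), and it was -1.45 without MI4KO replicate 3 and -4.19 with MI4OE replicate 2 left out.

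Cfd, a serine protease that starts the alternative complement pathway, had the widest spread within a genotype. It was at 9.46, 62.0 and 300.0 CPM in MI4KO, against 3.39, 14.4 and 4.15 CPM in MI4OE. MI4KO replicate 1 lay below MI4OE replicate 2, so the groups overlapped. The log2 fold change was -4.07 (SE 1.2), with -2.29 when MI4KO replicate 3 was left out and -5.03 when MI4OE replicate 2 was.

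Plin1 was at 5.4, 20.4 and 37.0 CPM in MI4KO, against 0.640, 3.57 and 1.06 CPM in MI4OE. Cidec was at 12, 19.7 and 62.8 CPM in MI4KO, against 0.640, 5.42 and 1.46 CPM in MI4OE. In both droplet genes the groups did not overlap, with MI4KO replicate 3 the highest and MI4OE replicate 1 the lowest library. Their log2 fold changes were -3.53 (SE 0.82) and -3.62 (SE 0.88). With MI4KO replicate 3 left out they were -2.85 and -2.64, and with MI4OE replicate 2 left out -4.61 and -4.89.

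Fabp4 did not separate the genotypes. It was at 128, 212 and 398 CPM in MI4KO, against 260, 104 and 104 CPM in MI4OE. MI4OE replicate 1, the lowest library for the adipokines, had the second highest Fabp4 level. The log2 fold change was -0.66 (SE 0.50), with -0.14 when MI4KO replicate 3 was left out and -1.24 when MI4OE replicate 1 was. FABP4 is also made by the endothelial cells of capillaries. The summed level of 7 endothelial genes was 86.1, 137 and 140 CPM in MI4KO and 318, 161 and 191 CPM in MI4OE, highest in MI4OE replicate 1. The part of endothelial RNA in the Fabp4 level was not tested.

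Pparg measured 1.76, 6.26 and 7.76 CPM in MI4KO, against 2.80, 1.68 and 1.94 CPM for MI4OE. The MI4OE libraries lay within 1.67-fold of each other, and MI4KO replicate 1 fell among them. The log2 fold change was -1.30 (SE 0.52), from -0.92 without MI4KO replicate 3 to -1.72 without MI4KO replicate 1.

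All 8 genes passed the filter on low counts. None reached an adjusted p under 0.05 in edgeR's quasi-likelihood test, where 3 of 12660 genes, or 0.0237%, did. At an unadjusted p under 0.05, 7 of the 8 passed, every gene but Fabp4, and the same 7 were at least 1.5-fold lower, beside 2.28% of all genes. Pparg, with p 0.0374 in that test, missed the threshold without MI4KO replicate 2 or 3 and without MI4OE replicate 2 or 3. It also missed it with total counts in place of TMM and with limma. Without MI4OE replicate 1 Fabp4 passed too (p 0.024, quasi-likelihood), so all 8 did, beside 2.2% of all genes. Each MI4OE library was below each MI4KO library in 5 of the 8, beside 5.47% of all genes. Because the genes were chosen with this contrast known, nothing is read from these counts. The median log2 fold change of the 8 genes was -3.60, beside -4.35e-05 for all genes tested. It became -2.29 when MI4KO replicate 3 was left out and -4.75 when MI4OE replicate 2 was, the libraries with the highest adipokine levels of each genotype. With edgeR's exact test 5 of the 8 were lower with an adjusted p under 0.05, beside 0.474% of all genes lower by the same rule, and with DESeq2 only Plin1 was, beside 0.482% lower. An exact test with dispersions estimated another way, added after the data were seen, gave 4 lower, beside 0.458% of all genes lower.

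Levels of different genes can be set side by side only per transcript length, as TPM. In every library Fabp4 was the highest and Cfd the next. Adipoq came next in all 3 MI4KO libraries, at 11.2, 28.7 and 114 TPM, and in MI4OE replicate 2, at 9.18 TPM. Pparg was the lowest of the 8 in these 4 libraries, tied with Lep at 6.63 TPM in MI4KO replicate 2. In MI4OE replicate 1 Pparg stood next to Cfd at 2.36 TPM, above Adipoq at 1.17 TPM. In MI4OE replicate 3 it stood just below Adipoq, at 1.86 against 2.05 TPM. Of the counts of all 8 genes, the 6 that differed by more than 10-fold made up 30.3%, 38% and 58.3% in MI4KO and 2.32%, 24.8% and 8.46% in MI4OE, the rest being Fabp4 and Pparg.

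The ratios between genes within a library ask whether they moved together, since genes that come from 1 source in fixed amounts keep their ratios whatever the share of that source. Adipoq was the reference, and ratios were taken between counts, which compares a gene only with itself across libraries. Across the 6 libraries the level of Adipoq spanned 91.9-fold.

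Cidec kept the steadiest ratio. There were 1.25, 1.12 and 0.771 Cidec counts per Adipoq count in MI4KO and 0.722, 0.912 and 1.06 in MI4OE, a 1.73-fold span. The 2 genotypes overlapped in this ratio. The standard deviation (SD) of its log2 value over the 6 libraries was 0.31, the smallest of 12659 genes.

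Plin1 had 0.564, 1.15 and 0.455 counts per Adipoq count in MI4KO and 0.722, 0.600 and 0.774 in MI4OE. Its SD of 0.46 ranked second. MI4KO replicate 2 was the highest, with a 95% exact binomial interval of 1.01 to 1.31, which did not meet that of MI4KO replicate 3, from 0.423 to 0.489.

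Lep had nearly the same ratio in 4 libraries. These were MI4KO replicates 2 and 3, at 0.652 and 0.689, and replicates 2 and 3 of MI4OE, at 0.659 and 0.677. The other 2 libraries departed from it in opposite directions. MI4KO replicate 1 had 1.77 Lep counts per Adipoq count, with an interval of 1.51 to 2.09. MI4OE replicate 1 had 0.222, with an interval of 0.0547 to 0.675 that reached the ratios of MI4KO replicate 2 and MI4OE replicate 2.

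Cfd had 3.51 and 3.69 counts per Adipoq count for MI4KO replicates 2 and 3, against 3.83, 2.42 and 3.03 for MI4OE. MI4KO replicate 1 was the exception at 0.987, with an interval of 0.820 to 1.19 that met none of the others. MI4KO replicate 1 thus had the most Lep counts and the fewest Cfd counts per Adipoq count.

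Retn had 0.295, 0.141 and 0.371 counts per Adipoq count in MI4KO and 0.556, 0.271 and 0.581 in MI4OE. MI4KO replicate 2 was the lowest, with an interval of 0.107 to 0.184 that met none of the others. The intervals cover counting error only. The 6 libraries differed by more than it in places for these adipokines and also for Cidec and Plin1.

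**Figure D2:**
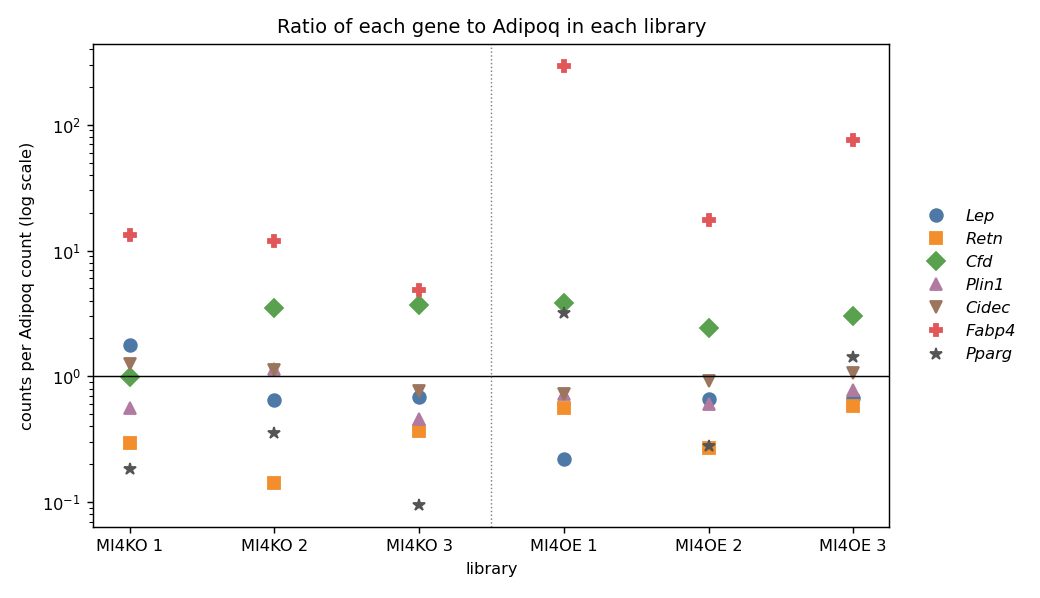
Counts of each gene per Adipoq count on a logarithmic axis in the 3 MI4KO and 3 MI4OE libraries, with equal counts as a line at 1. Cidec stayed between 0.722 and 1.25, whereas Fabp4 ran from 4.89 to 293 and Pparg from 0.0953 to 3.17.

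Fabp4 and Pparg did not keep their ratio to Adipoq. Fabp4 had 13.3, 12 and 4.89 counts per Adipoq count in MI4KO and 293, 17.5 and 75.7 in MI4OE. Pparg had 0.184, 0.354 and 0.0953 in MI4KO and 3.17, 0.282 and 1.42 in MI4OE. In both genes the ratio was lowest in MI4KO replicate 3, which had the most Adipoq, and highest in MI4OE replicate 1, which had the least. The levels of Fabp4 and Pparg spanned 3.84-fold and 4.62-fold, against 91.9-fold for Adipoq. Any gene that varies so little has its extreme ratios in these libraries.

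The SDs of the log2 ratio were 0.74 for Cfd, 0.76 for Retn and 0.91 for Lep, which ranked 12, 18 and 26 of 12659 genes. They were 1.88 for Pparg and 2.13 for Fabp4, which ranked 175 and 637. The median over the other 7 genes was 0.76, and over all genes tested it was 2.41, close to the SD of 2.37 of the Adipoq level itself. Any gene that differs between the genotypes as Adipoq does gets a small SD, so the ratios were also centred within each genotype. The within-genotype SD was then 0.32 for Cidec, 0.51 for Plin1, 0.68 for Retn, 0.79 for Cfd and 0.83 for Lep, against a median of 1.53 over all genes. It was 1.41 for Pparg and 1.53 for Fabp4, the second at the median of all genes. By this SD Cidec ranked 1, Plin1 5, Retn 19, Cfd 35, Lep 43, Pparg 2240 and Fabp4 6459.

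Apart from these 8, the 10 genes with the smallest SD of the log2 ratio to Adipoq over the 6 libraries were Scd1, Tmem45b, Hp, Nnat, Tshr, Orm1, Acp5, Lctl, Cdsn and Ptger3, with SDs from 0.52 to 0.74. Scd1, which makes monounsaturated fatty acids, was at 206, 934 and 1730 CPM in MI4KO, against 25.4, 122 and 41.1 CPM in MI4OE. Its SD was 0.52. Hp, which encodes the haemoglobin-binding plasma protein haptoglobin, was at 34.1, 42.2 and 139 CPM in MI4KO, against 1.57, 21.4 and 6.05 CPM in MI4OE. Tshr, the thyrotropin receptor, and Lctl were close to the limit of detection in MI4OE, with at most 0.454 and 0.350 CPM.

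Pparg is read from separate starts, which give transcripts for PPARγ1 (475 residues) and for the longer PPARγ2 (505 residues). In MI4KO replicates 1, 2 and 3 the authors' counting assigned 23.54, 55.06 and 175.73 counts to the Pparg2 transcript and 19.46, 102.94 and 55.27 to the Pparg1 transcript. In MI4OE it assigned 0 counts to Pparg2 in each library and 57, 48 and 44 to Pparg1. Pparg2 was thus detected in MI4KO libraries and in no MI4OE library.

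**Figure D3:**
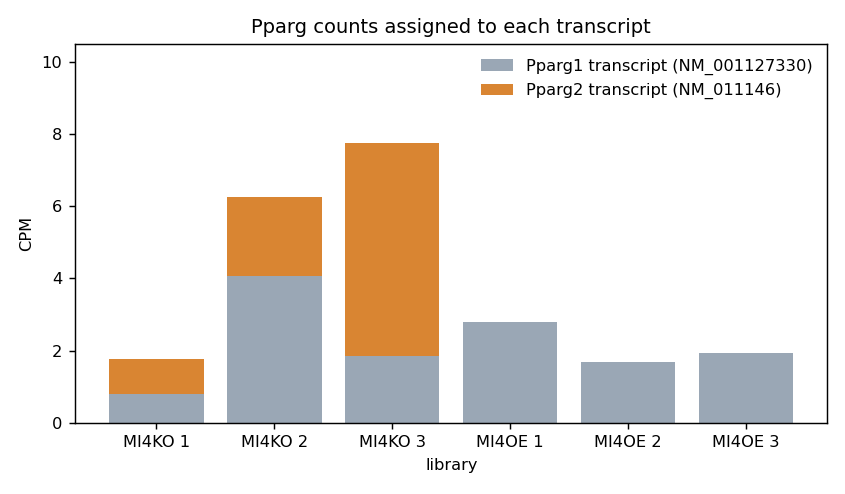
Pparg CPM in each library, stacked by the transcript to which the counts were assigned. The Pparg2 part was 0.964, 2.18 and 5.90 CPM in MI4KO and 0 in MI4OE, whereas the Pparg1 part was 0.797 to 4.08 CPM in MI4KO and 1.68 to 2.80 CPM in MI4OE.

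Pparg2 made up 54.7%, 34.8% and 76.1% of Pparg counts in MI4KO, a mean of 55.2% ± 20.6 (SD, n = 3). In MI4OE it made up 0 of 57, 48 and 44 counts, for which 3 counts, the limit of detection, would be shares of 5.26%, 6.25% and 6.82%. The exact 95% binomial intervals reached 6.27%, 7.40% and 8.04%. The exact permutation p, two-sided, was 0.1, which 3 against 3 libraries cannot go below. In the GENCODE transcripts of GRCm38 taken as their counterparts, only 127 bases of Pparg2 and 485 of Pparg1 are absent from the other. The GENCODE Pparg1 transcript has 2125 bases against 1857 in the transcript counted, so the 485 need not hold for the latter. Few reads told the transcripts apart, so the binomial limits are too narrow. The Pparg1 part was 2.24 ± 1.67 CPM (SD, n = 3) for MI4KO against 2.14 ± 0.589 CPM (SD, n = 3) in MI4OE, with overlapping groups. The share of Pparg2 was highest in MI4KO replicate 3, which also had the highest Adipoq level. Between the other MI4KO libraries the order was reversed, with 54.7% at 9.58 CPM of Adipoq in replicate 1 and 34.8% at 17.7 CPM in replicate 2.

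The Plin1 counts were also assigned to more than 1 transcript. Of its 2 transcripts, which differ little in length, the less abundant took 15.6%, 17.3% and 12.5% of Plin1 counts in MI4KO and 0% in MI4OE, where 13, 102 and 24 Plin1 counts were available. How many reads can tell these transcripts apart was not examined. Counts were assigned to both Cfd transcripts in all libraries. These are 924 and 927 bases long, and how many reads can tell them apart was not examined either. Their shares overlapped between the genotypes, at 67.9% ± 14.9 (SD, n = 3) in MI4KO and 53.7% ± 21.0 (SD, n = 3) in MI4OE for the shorter.

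Other genes typical of fat cells were taken from a list of 18 in the count table, 15 of which could be tested. Of these 15, 13 were lower and 2 were higher in MI4OE, and none passed the adjusted threshold. The 2 higher were Adig and Aqp7, with log2 fold changes of 0.69 (SE 1.08) and 0.31 (SE 0.41). Both were highest in MI4OE replicate 1, at 9.94 and 9.54 CPM, and without that library all 15 genes were lower. At 1.5-fold and an unadjusted p under 0.05, 12 were lower, beside the 2.28% given above, and the median log2 fold change was -1.90. The 4 with the smallest p were Mrap, Nnat, Scd1 and Thrsp. Mrap, a partner of melanocortin receptors, was at 3.15, 2.34 and 6.85 CPM in MI4KO, against 0.197, 0.769 and 0.353 CPM in MI4OE. Nnat, an imprinted gene also expressed in adipose tissue, had the largest difference on the list, with a log2 fold change of -4.83 and a standard error of 0.96, which became -3.55 without MI4KO replicate 3. Thrsp, a regulator of lipid synthesis, differed less, with -1.37 and 0.35. Without Car3 and Plin4, which muscle fibres also express, the summed level of the other 16 genes was 277, 1130 and 2110 CPM in MI4KO and 94.2, 182 and 91.3 CPM in MI4OE. Scd1 made up most of these sums in MI4KO. Without it the 15 remaining genes summed to 71.0, 194 and 383 CPM in MI4KO and 68.8, 59.9 and 50.2 CPM in MI4OE, with MI4KO replicate 1 close to MI4OE replicate 1. Without MI4KO replicate 3, 8 of the 15 were lower by the criterion, beside 2.22% of all genes, and the median was -1.34. Acvr1c, Adrb3 and Hcar1 did not pass the filter on low counts. Adrb3, the beta3-adrenergic receptor, had 114 and 42 counts in MI4KO replicates 2 and 3 and at most 2 in any other library.

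**Figure D4:**
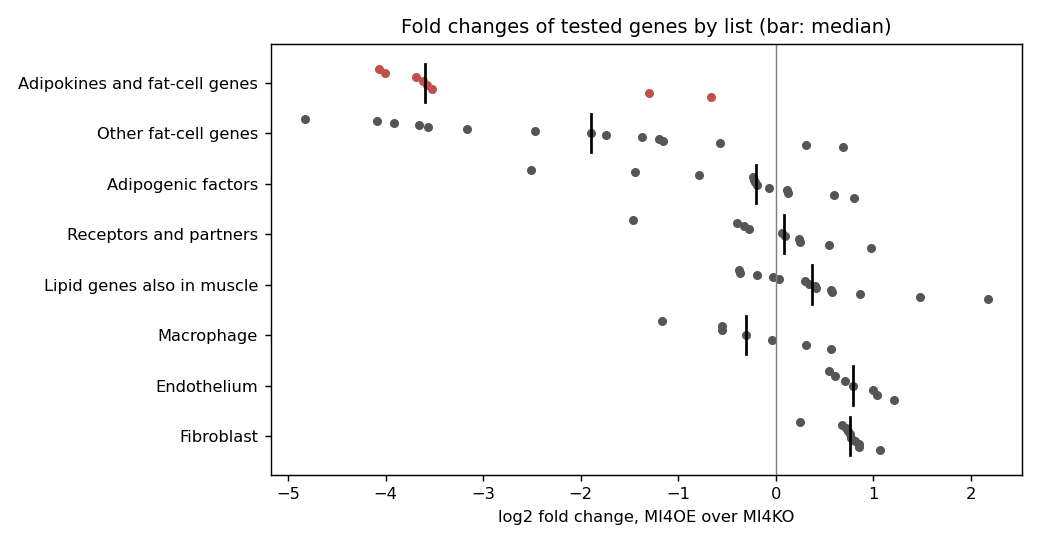
Log2 fold change of MI4OE over MI4KO for each tested gene of 8 lists, with the list median as a bar. The 8 adipokine and fat-cell genes (red) had a median of -3.60, other fat-cell genes -1.90, and the endothelial and fibroblast genes 0.79 and 0.76.

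Among 12 factors that act in fat cell formation, 8 were lower and 4 higher, 2 of them lower by the unadjusted criterion, beside 2.28% of all genes, with a median of -0.20. These 2 were Cebpa and Cebpd. When MI4KO replicate 3 or MI4OE replicate 1 was left out 3 passed, beside 2.22% and 2.2% of all genes. Cebpa, the partner of PPARγ in mature fat cells, was at 7.78, 20.5 and 42.7 CPM in MI4KO, against 3.54, 5.07 and 3.8 CPM in MI4OE, and the groups did not overlap. Its log2 fold change was -2.51 (SE 0.56), and -1.78 without MI4KO replicate 3. Cebpd, an early factor, was at 68.8, 41.8 and 22.9 CPM in MI4KO, against 24.3, 9.96 and 15.1 CPM in MI4OE, highest in the MI4KO library in which Adipoq was lowest. Without that library, replicate 1, its log2 fold change of -1.44 became -0.99 and missed the criterion. Cebpb, which acts with Cebpd, had -0.79 (SE 0.41). Ebf2, a factor of fat cell precursors, had 0.80 (SE 0.48).

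Of 10 receptors and partners through which the adipokines act, 4 were lower and 6 higher, with a median log2 fold change of 0.08, and Cfb alone was lower by the unadjusted criterion (2.28% of all genes), which it missed without MI4KO replicate 3 (-0.52), MI4OE replicate 1 (-1.38) or MI4OE replicate 3 (-1.25). The median became -0.24 without MI4KO replicate 2 and -0.23 without MI4OE replicate 3. Cfb, complement factor B, the substrate of adipsin, was at 4.22, 5.55 and 18.6 CPM in MI4KO, against 3.05, 4.89 and 2.34 CPM in MI4OE. The adiponectin receptors were at 386 to 466 CPM in MI4KO and 233 to 387 CPM in MI4OE for Adipor1, and at 137 to 163 CPM and 97.4 to 136 CPM for Adipor2. Their log2 fold changes were -0.40 (SE 0.23) and -0.33 (SE 0.19). Cdh13, which binds adiponectin on muscle and vessel surfaces, had 0.24 (SE 0.19). Lepr, the leptin receptor, was low throughout, at 0.319 to 0.977 CPM in MI4KO and 1.07 to 2.04 CPM in MI4OE, with the MI4OE libraries above. Cap1, a reported receptor of resistin, had 0.55 (SE 0.24).

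Of 14 tested lipid genes that muscle fibres also express, 4 were lower and 10 higher, with a median of 0.37, and 1 was higher by the unadjusted criterion, beside 4.36% of all genes. It was Fabp3, the fatty acid carrier of muscle, which was higher with a log2 fold change of 2.18 and a standard error of 0.93. Fabp3 measured 149 to 378 CPM in MI4KO, against 2680, 163 and 484 CPM for MI4OE, and its log2 fold change was 0.40 when MI4OE replicate 1 was left out. It also missed the criterion when any 1 MI4KO replicate was left out. Without MI4OE replicate 1, 12 of the 14 genes were lower, the median was -0.16 and none passed the criterion. Plin5, the perilipin of oxidative tissue, was likewise highest there, at 85.1 CPM against 8.81 to 20.7 CPM elsewhere. Plin2 and Gpd1 had -0.37 (SE 0.23) and -0.38 (SE 0.30).

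Markers of other cell types were examined beside the adipokines. All 7 endothelial genes and all 10 fibroblast genes were higher in MI4OE, 4 and 7 of them by the unadjusted criterion, beside 4.36% of all genes. Without MI4OE replicate 1 these were 2 and 5, beside 2.36% of all genes, and 1 fibroblast gene was lower. Without MI4KO replicate 1 only 1 endothelial gene passed, beside 2.31% of all genes. The fibroblast genes summed to 262 to 398 CPM in MI4KO and 432 to 626 CPM in MI4OE. Of 7 macrophage genes 5 were lower and 2 higher, with 1 lower by the criterion (2.28% of all genes). None was lower by it without MI4KO replicate 2 or 3 or MI4OE replicate 1 or 2, and without MI4KO replicate 3 the balance turned to 3 lower and 4 higher. The macrophage genes summed to 30.0 to 48.9 CPM in MI4KO and 22.4 to 40.4 CPM in MI4OE. The 6 Schwann cell genes were higher in MI4OE, none by the criterion, with a median of 0.90. They summed to 34.1, 123 and 28.4 CPM in MI4KO and 94.7, 223 and 77.2 CPM in MI4OE, so MI4KO replicate 2 stood apart. Without it all 6 passed, beside 3.8% of all genes, and the median was 2.09. The part of these cell types in the difference of the adipokines was not tested. Ucp1, the uncoupling protein of brown fat, was singled out after its values were seen. It was at 71.0 CPM in MI4KO replicate 2 and at most 0.148 CPM in the other 5 libraries. In that library Cidea, also typical of brown fat, was at 24.8 CPM, against 0.210 to 7.53 CPM elsewhere. Of the 9 brown fat genes that had counts, 5 were highest in that library, the other 3 being Elovl3 at 1.31 CPM against 0.134 to 0.541 CPM, Slc27a2 at 1.70 CPM against at most 0.369 CPM and Gyk at 0.792 CPM against at most 0.353 CPM. Cox8b was lowest there, at 241 CPM against 250 to 730 CPM, and Zic1, Prdm16 and Dio2, at 0.251, 2.85 and 1.07 CPM, lay within the range of the others. MI4KO replicate 2 was also the library with the lowest Retn and the highest Plin1 per Adipoq count.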

How the data were processed

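RNA was sequenced from gastrocnemius of 3 MI4KO and 3 MI4OE mice as stranded mRNA libraries, single reads. The authors used bcl2fastq 2.17, Bowtie2 2.1.0 and RSEM 1.2.15 with UCSC transcripts, and deposited expected counts and TPM per gene and per transcript. The genome build is not given in the sources used here. The deposited comparison tables, with fold changes, p-values, false discovery rates and 12 scaled library columns, were not used.

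Expected counts were rounded and genes filtered with filterByExpr (minimum count 10, minimum total 15), leaving 12660. CPM were scaled by TMM. edgeR 4.0.16 (quasi-likelihood, Benjamini-Hochberg adjustment, R 4.3.3) was the main test, with DESeq2 1.42.0, edgeR's exact test and limma 3.58.1 on log2(TPM + 1) as alternatives. The count tests were tested on simulated data. Ratios to Adipoq used counts plus 0.5. Intervals are exact 95% binomial (Clopper-Pearson). Nothing says that libraries of a genotype came from separate litters, so p-values measure only the spread between these libraries.

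The members and lists were chosen with earlier results of these data known. Named genes were the 8, up to 4 of each other list with the smallest p, 7 receptors and factors, and the 10 nearest to Adipoq. Outside this rule, Ucp1, Cidea, Zic1, Slc27a2, Gyk, Adrb3, Acvr1c, Hcar1, Adig, Aqp7, Car3, Plin4 and Acta1 were named after their values were seen. Lists of Schwann cell, myofibre and brown fat genes were also examined. Of the 5 tested brown fat genes, 2 were lower and 3 higher, with 4 lower and 1 higher without MI4OE replicate 1. Of 6 Schwann cell genes 5 were higher when MI4KO replicate 1 or 3 or MI4OE replicate 2 was left out. Of 8 myofibre genes 5 were lower and 3 higher.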

Additional observations from a re-analysis of the deposited data

How the results depend on the processing

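Each of the 8 genes was lower in MI4OE under every alternative in which it had a p, and between 6 and 8 of them were past 1.5-fold and an unadjusted p under 0.05. The number with an adjusted p under 0.05 was 0, and became 1 with the DESeq2 Wald test, 5 with edgeR's exact test and 4 with the exact test with classic dispersions, which was added after the data were seen. In DESeq2 Retn had no p. With the filters, scalings, limma fits and fits without 1 library it was 0. The median log2 fold change of -3.60 ran from -4.75 to -2.29 when 1 library was left out, lowest without MI4OE replicate 2 and highest without MI4KO replicate 3, and the cause was not tested. The median SD of the log2 ratio, 0.76, became 2.08 with Fabp4 in place of Adipoq as the reference, the gene whose own ratio to Adipoq had an SD of 2.13, and ran from 0.66 to 0.85 without 1 library. The difference in the Pparg2 share, -55.2 percentage points, ran from -65.4 to -44.8 without 1 library. Total counts without TMM moved the median of all genes to 0.0896. No paired analysis was possible because the labels number no replicates and the numbers used here are in accession order. Depth limits every gene but Fabp4 and Cfd in MI4OE, where replicates 1 and 3 held 4 to 57 counts of each. Adipoq, the reference of the ratios, had 18 and 31.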
